A study of Mus musculus with 8 samples.

Results

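The aminoacyl-tRNA synthetase genes are described here by the ASH2L binding sites at their promoters. Members were the protein-coding genes of the mm10 annotation whose symbols follow the naming of synthetases, an amino acid letter followed by ars, with Eprs and Tarsl2 added. This gave 38 of 21938 protein-coding genes. Of these, 21 encode cytosolic enzymes and 17 carry the suffix 2 of the mitochondrial enzymes. Tarsl2 also ends in 2 but was counted with the cytosolic enzymes, as was each of Gars and Kars, whose single gene makes both the cytosolic and the mitochondrial protein. A gene was given a promoter site when the centre of an ASH2L site lay within 1 kb of any annotated transcription start site (TSS) of that gene.

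The study degraded ASH2L, a core subunit of the COMPASS/KMT2 complexes that methylate histone H3 at lysine 4, in immortalised mouse embryo fibroblasts (iMEF). The cells carried floxed Ash2l alleles and Cre-ER, received human ASH2L fused to FKBP-F36V and HA tags (FKBP-HA2-ASH2L) by a lentivirus, and then lost exon 4 of the endogenous gene, so that all groups shared the fusion protein as their ASH2L. Individual clones were selected and most work was done in a single clone, NG3, which limits how far the cells stand for fibroblasts in general. There were 8 libraries in 4 groups of 2, namely ASH2L ChIP and input, each without dTAG and after 1 h of dTAG, the compound that ties the fusion protein to the E3 ligase subunit cereblon. The ChIP used antibodies against the HA tags, so the sites are those of the fusion protein and not of the mouse protein.

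The values used here for the synthetase genes are the positions of 6444 ASH2L sites found over all samples. A second list that the study names, of sites with a significant change after dTAG, is not analysed here. The list holds no signal, count or score per site and no column per sample. A site can therefore be placed on a gene, but its strength, its spread between replicates and its change after dTAG are not analysed here. The depth of the libraries is unknown from this list. A gene without a site is one at which no site was listed, which does not show that ASH2L was absent. The labelled cell type could not be checked against marker genes, since the list holds no expression values.

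Aminoacyl-tRNA synthetases attach each amino acid to its tRNA and so supply the ribosome with charged tRNAs. The cytosol and the mitochondrial matrix each need a set, and all mitochondrial synthetases are encoded in the nucleus, mostly by separate genes. Some cytosolic enzymes form the multi-tRNA synthetase complex together with the scaffold proteins encoded by Aimp1, Aimp2 and Eef1e1. When amino acids run short, the kinase encoded by Eif2ak4 senses uncharged tRNA and translation of the transcription factor ATF4 rises, which activates several cytosolic synthetase genes. Trimethylation of H3K4 by the KMT2 complexes is found at active promoters, many of which lie in CpG islands.

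The promoter sequences that bear on the sites are shown first. The 100 bases directly upstream of the gene start are given for the 5 synthetase genes chosen because all 100 lay inside the ASH2L site. The genome is mm10 (GRCm38), each sequence is read 5′ to 3′ on the strand of the gene, and capitals mark the listed motifs found by letter. These are the E-box letters CACGTG at Farsb, the ATF4 composite letters TGATGNAA, read on the opposite strand, at Gars, and the NFY letters CCAATNNG at Wars.
Farsb, chr1:78488898-78488997, - strand: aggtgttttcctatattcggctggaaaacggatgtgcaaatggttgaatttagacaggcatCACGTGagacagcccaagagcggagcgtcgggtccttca
Gars, chr6:55037907-55038006, + strand: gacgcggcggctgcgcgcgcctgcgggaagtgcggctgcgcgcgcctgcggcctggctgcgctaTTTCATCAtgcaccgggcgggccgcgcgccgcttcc
Vars, chr17:35000887-35000986, + strand: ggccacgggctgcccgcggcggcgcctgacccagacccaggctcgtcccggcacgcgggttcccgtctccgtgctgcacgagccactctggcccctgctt
Wars, chr12:108894175-108894274, - strand: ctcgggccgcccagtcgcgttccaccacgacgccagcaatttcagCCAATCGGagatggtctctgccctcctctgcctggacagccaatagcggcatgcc
Aars2, chr17:45506741-45506840, + strand: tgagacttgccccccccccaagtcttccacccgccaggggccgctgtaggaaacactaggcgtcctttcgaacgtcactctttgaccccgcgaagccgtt
The 5 stretches differed in base composition. Their GC content was 50.0% at Farsb, 78.0% at Gars, 76.0% at Vars, 64.0% at Wars and 62.0% at Aars2. The Gars stretch held 19 CpG dinucleotides and the Farsb stretch 6. Farsb thus had a site on a promoter with less GC than the other 4.

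An ASH2L site was found at the promoter of 13 of the 38 synthetase genes, a share of 34.2%. Over all protein-coding genes the share was 14.0% (3078 of 21938), and among protein-coding genes whose TSS had a CpG island nearby (within 1 kb) it was 19.0% (3059 of 16101). All 38 synthetase genes had such an island, so the island genes are the closer background. Among genes with an island of at least 500 bp, which again included all 38 synthetase genes, 21.5% had a site. Genes are not replicates, and no test of these shares was made.

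The cytosolic and the mitochondrial enzymes had nearly the same share. Sites lay at 7 of 21 cytosolic genes (33.3%) and at 6 of 17 mitochondrial genes (35.3%). The cytosolic genes were Dars, Farsb, Gars, Hars, Vars, Wars and Yars, which charge tRNAs with aspartate, phenylalanine (beta subunit), glycine, histidine, valine, tryptophan and tyrosine. The mitochondrial genes were Aars2, Fars2, Hars2, Iars2, Tars2 and Yars2, for alanine, phenylalanine, histidine, isoleucine, threonine and tyrosine. Leaving out Gars and Kars, the genes that serve both compartments, left 6 cytosolic genes with a site.

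The genes for the same amino acid were also compared. Of 13 amino acids with 1 cytosolic and 1 mitochondrial gene, both genes had a site for 2, histidine and tyrosine. Hars and Hars2 share a single site, which lies upstream of Hars and inside Hars2, so tyrosine was the pair with separate sites, Yars and Yars2 being on different chromosomes. A site at the cytosolic gene but not its mitochondrial counterpart was found, among others, for valine and tryptophan. The reverse was found for alanine and isoleucine. With so few pairs, these counts are a description of where the sites lay. Neither gene had a site for cysteine, leucine, methionine, asparagine, arginine and serine. Threonine has 2 cytosolic genes, Tars and Tarsl2, neither with a site, and Tars2 had a site. Phenylalanine has 2 cytosolic subunit genes, and here Farsb and Fars2 had a site while Farsa, the alpha subunit, had none.

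**Figure D1:**
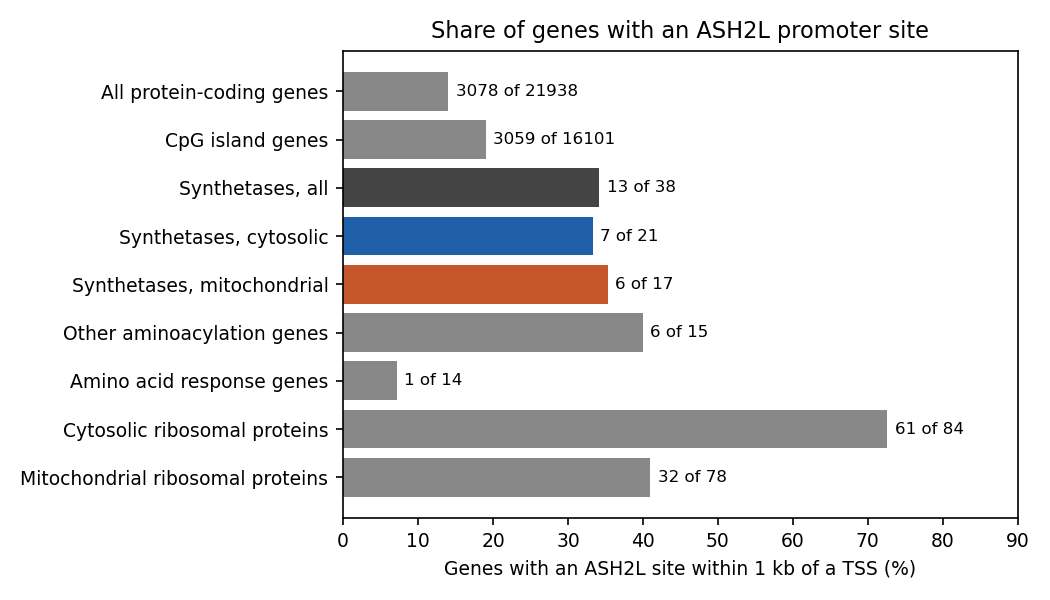
Share of genes with an ASH2L site centred within 1 kb of a TSS, in percent, with the number of genes beside each bar. The synthetase genes stood at 34.2%, with cytosolic and mitochondrial enzymes at 33.3% and 35.3%, between the island genes at 19.0% and the cytosolic ribosomal protein genes at 72.6%.

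Other genes of the translation machinery set the scale. Of 84 cytosolic ribosomal protein genes, close paralogs included, 61 had a site (72.6%). Of 78 mitochondrial ribosomal protein genes, 32 had a site (41.0%). The plot of shares places both synthetase classes below both ribosomal sets. The ribosomal sets lay further apart than the synthetase classes, but none of these differences was tested.

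The cytosolic enzymes can also be grouped by the multi-tRNA synthetase complex. Of its 8 synthetase genes, 1 had a site (12.5%), near the 14.0% of all protein-coding genes and the 19.0% of those with an island. This gene was Dars, and Eprs, Iars, Kars, Lars, Mars, Qars and Rars had none. Of the other 13 cytosolic genes 6 had a site (46.2%). By catalytic fold, 5 of 18 class I genes (27.8%) and 8 of 19 class II genes (42.1%) had a site, with Eprs, which joins an enzyme of each class, left out. These groupings were chosen after the counts were known and were not tested.

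Most of the sites lay close to a TSS. The 13 genes held 13 distinct sites, since Yars had 2 and Hars and Hars2 shared 1. Their width had a median of 398 bp (206 to 562 bp), which fell to 329.5 bp with a window of 3 kb. The 3168 promoter sites of all protein-coding genes had a median of 305 bp with quartiles of 232 and 425 bp. With 13 sites, this is not read as a difference in width. None of the synthetase sites was at the smallest width of the list, 200 bp, which 9.25% of all promoter sites had. The centre was within 200 bp of a TSS at 9 of 13 sites (69.2%; all promoter sites 61.6%) and downstream of the nearest TSS at 9 of 13 (69.2%; all promoter sites 67.0%). Of the 13 sites, 8 covered a TSS of a synthetase gene. Centres fell in a 5′ UTR at 5 sites, in coding sequence at 3, in an intron at 2 and upstream of the gene at 3, with the shared site counted for Hars.

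**Figure D2:**
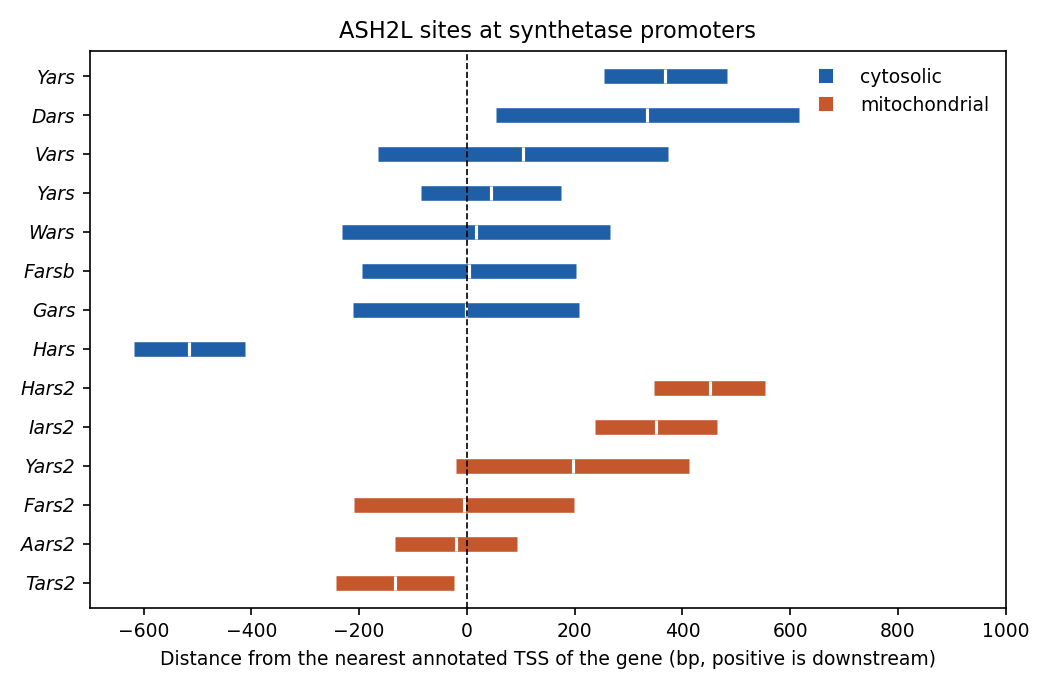
Extent of each ASH2L site (bar) and its centre (white tick) relative to the nearest annotated TSS of the gene, in bp, with cytosolic genes in blue and mitochondrial genes in orange. Hars and Hars2 show the same site on either side of their start sites, and the bars of Farsb, Gars, Wars and Fars2 are centred within 20 bp of a TSS.

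The widest cytosolic sites were at Dars, Vars and Wars. Dars (ENSMUSG00000026356.15) had a site of 562 bp at chr1:128416744-128417305, centred 335 bp downstream of the nearest TSS in an intron, and the site covered no annotated TSS of the gene. Vars (ENSMUSG00000007029.16) had a site of 539 bp at chr17:35000886-35001424, centred 104 bp downstream in the 5′ UTR, with 75.0% GC, the highest GC content among the synthetase sites. Wars (ENSMUSG00000021266.16) had a site of 497 bp at chr12:108893909-108894405, centred 17 bp downstream in the 5′ UTR. The Wars site also lay 115 bp upstream of Wdr25, whose closest start is 98 bp away in the other direction. The list cannot tell to which of both promoters the site belongs.

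Gars and Farsb had sites centred almost on the start. Gars (ENSMUSG00000029777.10) had a site of 419 bp at chr6:55037796-55038214, centred 2 bp upstream of the TSS, with 70.2% GC and 12.4 CpG per 100 bp. Farsb (ENSMUSG00000026245.16) had a site of 398 bp at chr1:78488657-78489054, centred 4 bp downstream of a TSS in the 5′ UTR and covering all 6 of its annotated TSSs. At 58.3% GC and 7.29 CpG per 100 bp the Farsb site was the poorer in CpG.

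Yars, for tyrosine, was the synthetase gene with more than 1 site. The first site of Yars (ENSMUSG00000028811.11) was 259 bp wide at chr4:129189818-129190076, centred 45 bp downstream of the nearest TSS in coding sequence. The second was 229 bp wide at chr4:129190156-129190384, centred 368 bp downstream in an intron. Both were also upstream of S100pbp, whose closest start is 33 bp from a Yars TSS on the other strand. They lay 220 and 543 bp from the nearest S100pbp TSS. A share of 2.07% of all protein-coding genes had 2 or more promoter sites, as did 14.8% of those with a site.

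Hars and Hars2, the cytosolic and the mitochondrial histidine enzyme, are neighbours on opposite strands whose gene records overlap. Their closest divergent start sites are 26 bp apart. Their shared site was 206 bp wide at chr18:36783618-36783823. Its centre was 515 bp upstream of Hars (ENSMUSG00000001380.7). In Hars2 (ENSMUSG00000019143.15) the centre was in an intron, 451 bp downstream of the nearest TSS but 712 bp inside the gene from its first start. The site covered no TSS of either gene and was the narrowest synthetase site, with the lowest GC content (51.0%) and 2.43 CpG per 100 bp. With a window of 500 bp Hars lost its site and Hars2 kept it.

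The mitochondrial sites had a median width of 226 bp (206 to 433 bp), and the cytosolic sites a median of 408.5 bp (206 to 562 bp), with the shared site in both. The ranges overlap and the site list carries no replicate error for a width. Yars2 (ENSMUSG00000022792.16) had the widest mitochondrial site, 433 bp at chr16:16302961-16303393, centred 196 bp downstream of a TSS in coding sequence and covering 4 TSSs. Fars2 (ENSMUSG00000021420.13) had a site of 409 bp at chr13:36117663-36118071, centred 5 bp upstream of an annotated TSS but 455 bp inside the gene from its first start. The Fars2 site was 341 bp upstream of Lyrm4, the divergent neighbour.

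The other 3 mitochondrial sites were between 219 and 226 bp wide. Aars2 (ENSMUSG00000023938.8) had a site of 226 bp at chr17:45506708-45506933, centred 21 bp upstream of the TSS. Iars2 (ENSMUSG00000026618.11) had a site of 226 bp at chr1:185328933-185329158, centred 351 bp downstream of the TSS in coding sequence, with 72.6% GC. Tars2 (ENSMUSG00000028107.14) had a site of 219 bp at chr3:95754908-95755126, centred 134 bp upstream of the nearest TSS but 5189 bp inside the gene, because an annotated start lies far upstream of the others. With the gene start alone in place of all TSSs, Tars2 had no site. It also had 0 island bases within 1 kb of that first start.

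The remaining 25 genes, 14 cytosolic and 11 mitochondrial, had no promoter site. The nearest site was a median of 39.5 kb from a TSS, against 124 kb for all protein-coding genes without a promoter site. That background includes genes without an island, and the distance for island genes alone is not given here. The nearest site lay within 5 kb for 2 synthetase genes, within 20 kb for 9 and within 100 kb for 16, and beyond 100 kb for 9. Of these 25 nearest sites, 15 were within 1 kb of a TSS of another gene (60.0%; all protein-coding genes without a promoter site 58.0%) and 10 were not at any annotated promoter.

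**Figure D3:**
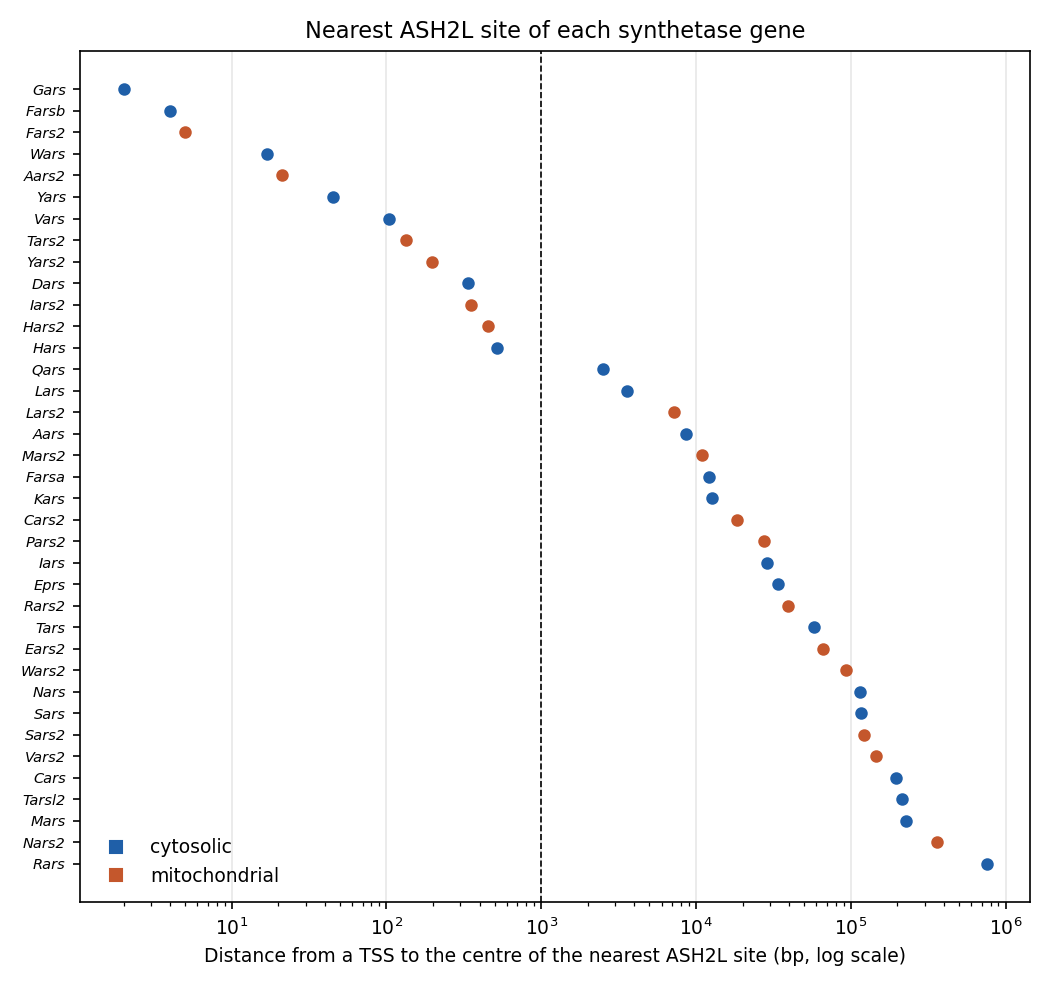
Distance in bp (log axis) from a TSS to the centre of the nearest ASH2L site for 37 synthetase genes, with cytosolic genes in blue and mitochondrial genes in orange. The dashed line marks the window of 1 kb, with Hars just inside it at 515 bp and Qars the first gene outside at 2503 bp.

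Qars and Lars were the nearest misses. Qars, for glutamine and the gene with the most annotated TSSs of the family (29), had its nearest site 2503 bp downstream of a TSS, beyond the end of the gene and at the promoter of Qrich1. A window of 3 kb added it, giving 14 of 38 genes. Lars, for leucine, had a site of 200 bp in an intron, 3557 bp downstream of a TSS.

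A site inside the gene body but away from any promoter of the gene was found at 4 of the 25 genes, Aars, Lars, Lars2 and Wars2 (16.0%; 4.73% of all protein-coding genes without a promoter site and 6.08% of those with an island). This is a count of few genes and was not tested. The Aars site, 573 bp wide at chr8:111056300-111056872, was 8.67 kb from the nearest TSS in the 3′ UTR and at the promoter of Exosc6, an exosome subunit gene. The Lars2 site was 341 bp wide, 7.24 kb from the nearest TSS and in the 3′ UTR. The Wars2 site was 200 bp wide in an intron, 93.0 kb from the nearest TSS. The Lars, Lars2 and Wars2 sites were at no annotated promoter.

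For the other cytosolic genes the nearest site was another gene's or distant. It was 12.2 kb away for Farsa (the Calr promoter), 12.6 kb for Kars (Adat1, a tRNA adenosine deaminase gene), 28.8 kb for Iars (Cenpp and Nol8) and 34.0 kb for Eprs, where it was the site of Iars2. It was 58.0 kb away for Tars, 114 kb for Nars, 117 kb for Sars (Tmem167b), 197 kb for Cars, 214 kb for Tarsl2, 228 kb for Mars (Tspan31) and 754 kb for Rars. Rars, for arginine, was the member farthest from any listed site.

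The mitochondrial genes without a site ranged from 7.24 kb at Lars2 to 360 kb at Nars2. The distance was 10.9 kb for Mars2 (Rftn2), 18.4 kb for Cars2 (Naxd), 27.7 kb for Pars2 (Ttc4), 39.5 kb for Rars2 (Slc35a1), 65.8 kb for Ears2 (Dctn5 and Palb2), 123 kb for Sars2 and 146 kb for Vars2. The Nars2 site was that of Ndufc2, a gene for a subunit of respiratory complex I. The median distance was 39.5 kb for mitochondrial and 46.0 kb for cytosolic genes without a site.

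Promoter sequence was compared between synthetase genes with and without a site. The median GC content over 200 bp at the gene start was 65.0% with a site and 62.0% without, and the median number of CpG dinucleotides was 17 and 16. The median length of island within 1 kb of the gene start was 1021 bp (0 to 1843 bp) with a site and 857 bp (501 to 1477 bp) without, so the ranges overlap, and the 0 is that of Tars2. Among the cytosolic genes alone the median island length was 1023 bp (883 to 1843 bp) with a site and 813.5 bp (501 to 1243 bp) without, and the median GC content 64.0% and 60.2%. Among the mitochondrial genes it was 990.5 bp (0 to 1228 bp) with a site and 868 bp (661 to 1477 bp) without, and the median GC content 65.0% and 64.0%. For all protein-coding genes the same medians were 65.0% and 57.5% GC, 19 and 8 CpG, and 1123.5 and 579 bp of island. The number of annotated TSSs, which sets how much sequence a gene offers to the promoter window, had a median of 6 at synthetase genes with a site and 7 at those without. The medians were 5 and 3 over all protein-coding genes and 5 and 4 over those with an island. Mars2 had 1 TSS and Qars 29.

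Divergent promoters, in which a gene on the other strand starts within 1 kb upstream, were found at 14 of 38 synthetase genes (36.8%; all protein-coding genes 18.3%, those with an island 23.8%). Of these 14, 6 had a site (42.9%), as did 7 of the 24 others (29.2%). Over all protein-coding genes the shares were 28.2% and 10.9%, and over those with an island 29.4% and 15.7%. With protein-coding neighbours alone, 5 of 10 synthetase genes had a site (50.0%; all protein-coding genes 31.6%). The genes with a site were Hars and Hars2, facing each other, Wars with Wdr25, Yars with S100pbp and Fars2 with Lyrm4. Those without included Kars with Terf2ip, Ears2 with Ubfd1, Rars2 with Orc3 and Sars2 with Mrps12, which encodes a mitochondrial ribosomal protein. The closest start sites of the 5 pairs without a site were 13 to 172 bp apart. The other 4 divergent neighbours were non-coding or unclassified, at Iars2, which had a site, and at Cars, Eprs and Nars2, which had none.

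Motifs were searched by letter on both strands over 200 bp at the gene start. Of 38 synthetase genes, 28 held at least 1 of 9 motifs (73.7%, against 40.8% of all protein-coding genes). Motif shares of island genes, the closer background, are not given here. Among protein-coding genes with a site, 99.4% of which had an island, 53.1% held a motif. No match whose context was read, which leaves out Hars, Lars and Nars, overlapped a match of another motif. The ATF4 composite letters, TGATGNAA, were at 4 of 38 genes (10.5%, against 2.38% of all protein-coding genes and 1.01% of those with a site). These were the cytosolic genes Cars, Gars, Iars and Tars, and none of the 17 mitochondrial genes held them. Neither ATF4 binding nor an amino acid response was measured, and a match by letter shows neither. The context of each match is shown with the match in capitals, read 5′ to 3′ on the strand of the gene, mm10.
Cars, chr7:143600045-143600074, - strand: cggcgccgcggTTGCATCAgattctggaag
Gars, chr6:55037960-55037989, + strand: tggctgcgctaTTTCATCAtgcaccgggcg
Iars, chr13:49682126-49682155, + strand: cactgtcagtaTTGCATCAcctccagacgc
Tars, chr15:11399655-11399684, - strand: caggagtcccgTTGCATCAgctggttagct
Yars, chr4:129189895-129189924, + strand: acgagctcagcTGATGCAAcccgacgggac
The first 4 matches began between 36 bases upstream and 37 bases downstream of the gene start, and all 4 read on the strand opposite to the gene. Of these 4 genes Gars had an ASH2L site, which contained the match, and Cars, Iars and Tars had none. Among the 523 protein-coding genes with these letters at the gene start, 31 had a site. The Yars match is in the gene's own direction, in coding sequence inside the first Yars site, and lies outside the gene-start window. In the 200 bp at the site centre the letters were at 2 of 13 genes with a site, Gars and Yars (15.4%; all protein-coding genes with a site 0.78%).

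YY1 letters, AANATGGCG, were at 7 of 38 genes (18.4%, against 3.04% of all protein-coding genes and 6.53% of those with a site). Of these 7 genes, 5 were mitochondrial and 2 cytosolic. YY1 is a zinc finger factor known to act at genes of mitochondrial proteins. Contexts at 4 mitochondrial genes are shown with that of Fars2, which held the letters at its site centre.
Aars2, chr17:45506841-45506869, + strand: gcccggagctAAGATGGCGgtggcgttgg
Lars2, chr9:123366937-123366965, + strand: ttgttttgccAACATGGCGgcgcccagag
Wars2, chr3:99141086-99141114, + strand: cgcccttctcAAGATGGCGctgttctctg
Yars2, chr16:16302971-16302999, + strand: cgtgtcccgcAAGATGGCGgcgcccatgc
Fars2, chr13:36117868-36117896, + strand: tcttcccgtcAAGATGGCGgcgcccagcg
All of the matches shown read in the direction of the gene. Aars2, Fars2 and Yars2 had an ASH2L site that contained the match, and Lars2 and Wars2 had none. Among the 667 protein-coding genes with these letters at the gene start, 201 had a site. At Aars2, Wars2 and Yars2 the middle of the match is annotated as coding sequence. Farsa and Nars, both cytosolic and without a site, were the other 2 genes with the letters.

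NRF1 letters, GCATGCGC, were at 3 of 38 genes, Rars2, Vars2 and Wars2 (7.89%, against 2.69% of all protein-coding genes and 4.03% of those with a site). NRF1 is a regulator of nuclear genes for mitochondrial proteins. All 3 genes are mitochondrial and none had an ASH2L site. Of the 590 protein-coding genes with these letters 124 had a site, so none of 3 is not read as a difference. The match at each is shown in capitals, and for Vars2 the first of 2.
Rars2, chr4:34614895-34614924, + strand: cggccccgtgtGCATGCGCactccacactt
Vars2, chr17:35667620-35667649, - strand: gagtcttttacGCATGCGCctgcgtgtccc
Wars2, chr3:99141015-99141044, + strand: ccagaggacagGCGCATGCgtagtaagcac
The Wars2 match is on the opposite strand, where the same letters read in reverse complement. All 3 matches began within 51 bases upstream of the gene start.

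ETS letters, CCGGAAGT, were at 8 of 38 genes (21.1%, against 4.33% of all protein-coding genes and 9.97% of those with a site). The cytosolic genes Cars, Farsa, Hars, Lars, Mars, Nars and Wars held them, as did Rars2 among the mitochondrial genes. Of the 8 genes Hars and Wars had a site, as did 307 of the 951 protein-coding genes with these letters. E-box letters, CACGTG, which MYC and related factors bind, were at 3 genes, Farsb, Iars and Tars. The share was 7.89%, against 5.66% of all protein-coding genes and 6.63% of those with a site. At the site centres these letters were at 3 of 13 genes, Farsb, Vars and Yars2 (23.1%; all protein-coding genes with a site 3.38%). At the site centres YY1 letters were at 2 genes (15.4% against 4.03%) and NFY letters at 2 (15.4% against 2.89%), SP/KLF letters at 1 (7.69% against 12.5%) and ETS letters at 1 (7.69% against 7.12%). NRF1, CRE and ZBTB33 letters were at none (1.07%, 1.14% and 1.1% of all protein-coding genes with a site).

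SP/KLF letters, CCCCGCCC, were at 11 genes, 6 cytosolic and 5 mitochondrial (28.9%, against 18.5% of all protein-coding genes and 23.2% of those with a site). NFY letters, CCAATNNG, were at 7 genes, 4 cytosolic and 3 mitochondrial (18.4%, against 11.4% of all protein-coding genes and 11.4% of those with a site). CRE letters, TGACGTCA, and ZBTB33 letters, CTCGCGAG, were at none of the 38 genes. They were at 2.01% and 0.944% of all protein-coding genes, and at 3.41% and 2.24% of those with a site. No listed motif was found at 5 cytosolic genes, Eprs, Kars, Qars, Sars and Vars, and at 5 mitochondrial genes, Cars2, Ears2, Fars2, Hars2 and Tars2. A match by letter is not evidence of binding by the factor.

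**Figure D4:**
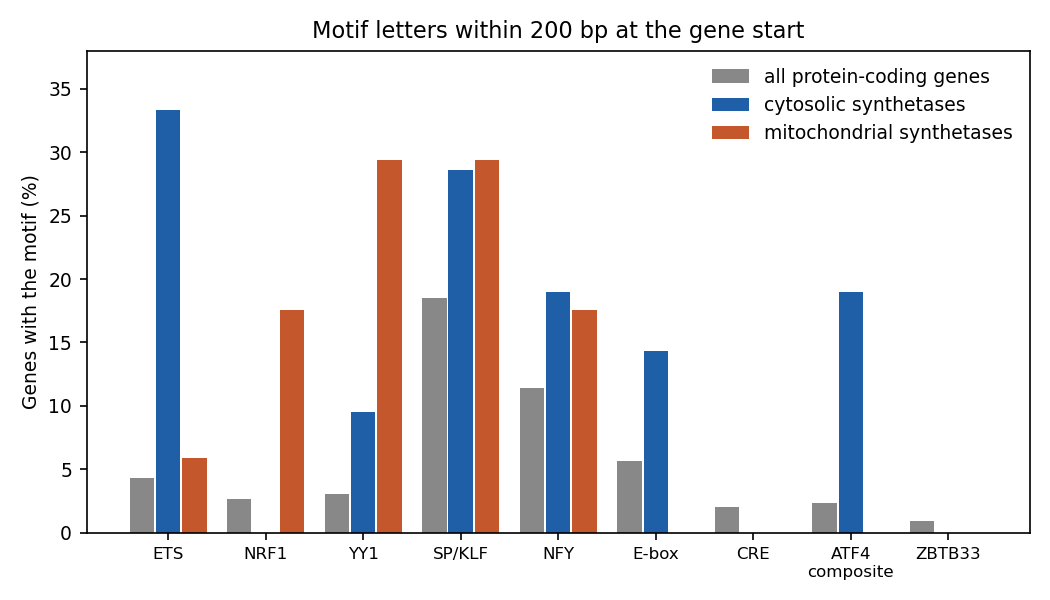
Share of genes, in percent, with the letters of each motif in 200 bp at the gene start, for all protein-coding genes (grey), cytosolic (blue) and mitochondrial synthetase genes (orange). The ATF4 composite and E-box letters were found at cytosolic synthetase genes and the NRF1 letters at mitochondrial synthetase genes, and CRE and ZBTB33 letters at neither.

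Any motif was held by 9 of 13 synthetase genes with a site (69.2%) and by 19 of 25 without (76.0%). Over all protein-coding genes with a site it was 53.1%. By class it was 76.2% of the cytosolic and 70.6% of the mitochondrial genes. These are counts over few genes and were not tested.

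Further genes of aminoacylation and of the amino acid response were taken from lists. Of 15 other aminoacylation genes, 6 had a promoter site (40.0%; all protein-coding genes 14.0%, those with an island 19.0%). Aimp1 had a site of 550 bp centred 60 bp downstream of its TSS, and Aimp2 had 2 sites. Eef1e1, the remaining scaffold gene, had none, its nearest site being 365355 bp away. Qrsl1, for a subunit of the enzyme that amidates mitochondrial glutamyl-tRNA, had 2 sites, Gatc, its partner, had 1 and Gatb had none. Trnt1, which adds the CCA end to tRNAs, had a site of 200 bp centred 17 bp downstream. Sepsecs, of selenocysteine synthesis on tRNA, had a site of 272 bp centred 26 bp upstream. Aarsd1, Dtd1, Dtd2 and Prorsd1 (editing of mischarged tRNA), Mtfmt (formylation of the mitochondrial initiator tRNA), Pstk and Sephs2 (selenocysteine) had none.

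Of 14 amino acid response genes, 1 had a promoter site (7.14%; all protein-coding genes 14.0%, those with an island 19.0%). This small count is not read as a difference. Atf4, the transcription factor of the response, had a site of 567 bp centred 242 bp downstream of a TSS and a second of 227 bp centred 892 bp downstream. Slc3a2, the heavy chain of amino acid exchangers, came nearest among the rest, with a site 1435 bp upstream. Eif2ak4, Ddit3, Cebpb, Cebpg, Trib3, Chac1, Asns, Psat1, Phgdh, Shmt2, Slc7a11 and Slc7a5 had none. All 14 genes had a CpG island.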

How the data were processed

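ASH2L ChIP-seq was measured in 8 libraries (4 ASH2L, 4 input) of iMEF cells expressing FKBP-HA2-ASH2L, with and without dTAG for 1 h. Reads were trimmed with Trim Galore, aligned to mm10 with BWA, filtered with SAMtools and merged over replicates with Picard, and narrow peaks were called with MACS2, per the labels and the study's methods. No tool versions are given in the sources used here. The deposited file is a list by the authors of genomic positions (chromosome, start, end) without count, score or p-value per site. Whether peaks were called per sample or on pooled samples is not visible in it, so the comparison with and without dTAG, replicate spread and stricter peak thresholds are not analysed here. Start positions were taken as 0-based, which makes the narrowest site 200 bp, and are given 1-based here.

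Site centres were assigned to genes of GENCODE release M21 on GRCm38 (the study used M25) when within 1000 bp of any annotated TSS. CpG islands were stretches of 200 bp or more with GC above 50% and a ratio of observed to expected CpG above 0.6. Motifs were matched by letter over 200 bp centred on the gene start, on both strands. Python 3.11.15, NumPy 2.4.6, pandas 2.3.3, pysam 0.24.0 and matplotlib 3.10.9 were used. The assignment was tested on simulated data, where 200 of 200 genes given a site were recovered over 21938 genes, with 0 false assignments.

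All members but 1, which is not reported here by name, are named. Of the planned sequences (the 3 widest sites of each class and motif matches), upstream stretches inside a site and short motif contexts were printed, and none from chromosome 18. The members and gene lists were chosen with earlier results of these data known. Alternatives were windows of 500 bp and 3 kb, the gene start alone, coding transcripts only, any overlap, sites wider than 200 bp, longer islands, coding or closer divergent neighbours, and other motif windows. Counts are descriptions and no test was run.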

Additional observations from a re-analysis of the deposited data

How the results depend on the processing

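Under 42 alternatives to 9 counts or medians, 41 stayed within 1.5 times the reported value or gave the same value. This limit is wide, since the median widths of 398 bp (synthetase sites) and 305 bp (all promoter sites) also lie within it. With the 3 kb window the median width of synthetase sites fell to 329.5 bp. Leaving out sites of 200 bp could not change the synthetase values, as no synthetase site had that width. Leaving out Gars and Kars could not change the mitochondrial count. The count of synthetase genes with a site was 12 to 14, with Hars lost at 500 bp, Qars gained at 3 kb and Tars2 lost with the gene start alone, while the share of all protein-coding genes ranged from 12.3% to 15.4%. The count of genes with a motif moved from 28 to 10 with a window of 200 bp at the site centre, an alternative that by construction covers the 13 genes with a site. The share was 76.9% there and 73.7% at the gene start, against 29.8% and 40.8% of the protein-coding genes with such a window. No paired analysis was possible because the result comes from no test and the list has no column per sample. Depth per library is unknown, so how many weaker sites were missed was not tested.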
